A study of Mus musculus with 8 samples.

Results

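The genes examined here are a set of 32 astrocyte identity and metabolism genes, chosen by name as genes known from this cell type, with no measured value in the rule. The set and the lists beside it were, however, chosen with earlier results of these data known. All non-control probes carrying 1 of the 32 gene names were taken, which gave 58 probes of 41174 on the array and 32 of 27373 gene names. After the filters on dim probes and on outlier flags 54 of the 58 probes were tested among 27982, and each of the 32 genes kept at least 1 probe. The 4 probes that were not tested are named below with their genes.

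Male mice aged 5 months and given no drug were used, 4 of the BTBR and 4 of the B6 strain, and the RNA of 1 hippocampal sample per mouse was hybridized to a single-color Agilent array. B6 is the inbred strain C57BL/6J, labeled wild type, and BTBR is the inbred strain BTBR T+ Itpr3tf/J, used as a mouse model of autism spectrum disorders. The strains differ at many loci besides the Itpr3tf allele named in the strain, so that a difference between them cannot be assigned to 1 allele, and the BTBR strain lacks a corpus callosum. The tissue was the whole hippocampus, and no cell type was sorted. The arrays sat on 2 slides according to the file headers, with replicates 1 and 2 of both strains on slide 1 and replicates 3 and 4 on slide 2. Between 56.8% and 71.9% of the probes of an array were well above background and no probe was saturated. The BTBR arrays differed among themselves in marker genes of neighboring tissue, for the thalamus mostly through BTBR 1. The mean log2 intensity of 14 thalamus genes was 12.96 and 11.09 on BTBR 1 and 2, 10.39 and 10.696 on BTBR 3 and 4, and between 10.54 and 10.71 on the B6 arrays. BTBR 1 and 2 were also the highest arrays for choroid plexus and oligodendrocyte genes, as given below. Values without BTBR 1 and 2, an alternative chosen after the data were seen, are given for the called genes and for Agt, Aldh1l1, Atp1b2, S100b and Slc7a10. That fit sets BTBR arrays of slide 2 against B6 arrays of both slides, so strain and slide are not fully separated in it.

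Astrocytes surround synapses and contact blood vessels with their endfeet. They take up glutamate and potassium, return glutamine to neurons, couple to each other through gap junctions, move water and bicarbonate, and supply neurons with sterols and lipids carried by apolipoproteins. In the hippocampus they lie in every layer, and radial astrocytes of the dentate gyrus act as neural stem cells.

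Between BTBR and B6 hippocampus 6 of the 54 tested astrocyte probes differed at an adjusted p under 0.05 in limma. Limma is a linear model in which the error of each difference comes from the variation among mice, drawn toward the variation typical of all probes. The 6 probes are 11.1% of the astrocyte probes, beside 7.61% of all probes tested. Ntsr2 and Acsbg1 were higher in BTBR, with 3 probes, beside 3.31% of all probes in that direction. Aldoc, Fabp7 and Id4 were lower, with 3 probes, beside 4.30% of all probes. At the level of genes 5 of 32 had at least 1 called probe, and 10% of all gene names tested did. The other 27 genes had no called probe, among them the water channel gene Aqp4, the connexin genes Gja1 and Gjb6, glutamine synthetase, Glul, and the apolipoprotein genes Apoe and Clu. Values are normalized log2 intensities, differences are BTBR minus B6 on that scale, and levels of different probes were not compared with each other.

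The rank product, the test named in the methods of the study, ranks probes within pairs of arrays and calls at a percentage of false positives (pfp) of 0.05 or less. It called 2 of the 54 probes, both of Id4 and both lower in BTBR, and none higher, beside 3.95% of all probes, 2.29% lower and 1.66% higher. The arrays of the 2 strains did not overlap for 9 of the 54 probes, beside 14.2% of all probes, and 14 had an unadjusted limma p under 0.05, beside 18.5%. Of the 54 probes 33 were higher and 21 lower in BTBR, beside 14900 higher and 13082 lower of all 27982. Their median difference was 0.07, beside 0.01 over all probes, and the median absolute difference was 0.13, beside 0.10. Under the alternatives of the closing section the median of the astrocyte probes was between 0.0036 and 0.08. In whole tissue, fewer astrocytes and less RNA per astrocyte cannot be told apart. Each array was 1 mouse, so the limma p-values set a difference against the spread between these mice. The rank product permutes probes within arrays and not mice, so its pfp does not measure that spread. An exact permutation test of 4 arrays against 4 can go no lower than 0.0286.

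The probes of the 5 genes with a called probe are shown first, because the results below rest on single probes and 3 of these genes have a second one. Each probe is 60 bases long, and its first 30 bases are given 5′ to 3′ as in the scanner files, with nothing marked. Positions are on mm9 as the files give them, and the files do not say which exon a probe lies in. The GC content of the whole probes was 51.7% and 48.3% for Ntsr2, 45% for Acsbg1, 51.7% and 38.3% for Aldoc, 35% for Fabp7, and 43.3% and 35% for Id4, in the order shown.
Ntsr2 A_51_P244540, chr12:16666543-16666601, plus strand: tacatggtgaccaacacgctcttctatgtc
Ntsr2 A_52_P266686, chr12:16666797-16666856, plus strand: ttgggacacacccatcagataagccatgcc
Acsbg1 A_52_P496956, chr9:54453010-54453069, minus strand: tgacatctccaatgccttcacgtgcaagta
Aldoc A_51_P220681, chr11:78139964-78140023, plus strand: agcgccaagtcatctcacatctcacatgcc
Aldoc A_51_P425284, chr11:78141189-78141248, plus strand: acaggatcactttaaccctctggatcgtat
Fabp7 A_51_P290074, chr10:57508039-57508098, plus strand: tgaagcactggtcactaattataagtttgt
Id4 A_52_P449871, chr13:48358668-48358727, plus strand: tgctaagtagaagagcaatcgtgaatccaa
Id4 A_51_P494430, chr13:48359180-48359239, plus strand: catgaggtgttcaatcacaaaataaaccag
All 48 astrocyte probes whose gene has a single strand in the RefSeq promoter table (27 genes) lie on the strand of their gene. The starts of both probes lie 254 bases apart in Ntsr2, 512 in Id4 and 1225 in Aldoc, and none of these pairs overlaps. Whether the strains differ in sequence under a probe was not tested.

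Genes of the cell surface and of signaling held the largest called rise among the astrocyte genes. Of their 14 probes 2, both of Ntsr2, were called higher and 0 lower, beside 3.31% and 4.30% of all probes. Ntsr2 encodes a neurotensin receptor that astrocytes carry. Its probe A_51_P244540 (NM_008747) read 14.71, 14.52, 14.61 and 14.57 on B6 arrays 1 to 4 and 15.07, 15.10, 15.02 and 15.21 on BTBR arrays 1 to 4. Every BTBR array lay above every B6 array. The difference was 0.50 (standard error 0.07, 95% interval from 0.34 to 0.66, limma adjusted p = 0.00195), a 1.42-fold rise, and it was 0.47 within slide 1, 0.53 within slide 2 and 0.52 (limma adjusted p = 0.0177) without BTBR 1 and 2. The second probe, A_52_P266686, read 16.27, 16.07, 16.23 and 16.08 in B6 and 16.46, 16.54, 16.47 and 16.60 in BTBR. Its arrays did not overlap either, with a difference of 0.35 (standard error 0.07, limma adjusted p = 0.0159). Limma did not call this probe within slide 1 (0.33, adjusted p = 0.113), within slide 2 (0.38, adjusted p = 0.157) or without BTBR 1 and 2 (0.37, adjusted p = 0.0694). The rank product called neither probe, with pfp values of 0.0935 and 0.330.

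The other 6 genes of this group had no called probe. Fgfr3, a fibroblast growth factor receptor of astrocytes, was measured by 3 probes with differences of 0.19, 0.14 and 0.07, and 2 of the probes share 37 bases. On the first of these, A_52_P506516, the B6 arrays lay between 13.15 and 13.31 and the BTBR arrays between 13.38 and 13.58, without overlap (limma adjusted p = 0.157). Plcd4, a phospholipase C, showed the same order on A_52_P327588, from 10.74 to 11.016 in B6 and from 11.024 to 11.26 in BTBR, with a difference of 0.27 (limma adjusted p = 0.0943). Its second probe, A_52_P607212, was well above background on 2 B6 and 4 BTBR arrays and so passed the filter on dim probes through BTBR alone, and its difference of 0.17 is no further support. Gpc5, a glypican of the cell surface, was lower on both of its probes, by 0.34 (limma adjusted p = 0.172) and by 0.15 (limma adjusted p = 0.266), and on the second, A_52_P644794, the arrays did not overlap. None of these differences passed the test over all probes. S100b, a calcium-binding protein, read from 16.34 to 16.53 in B6 and from 15.93 to 16.91 in BTBR, a difference of -0.0033 (95% interval from -0.41 to 0.40). It was 0.30 within slide 1 and -0.30 within slide 2 (limma adjusted p = 0.340 and 0.590), and -0.29 (limma adjusted p = 0.303) without BTBR 1 and 2. Tril, a partner of Toll-like receptors, differed by 0.08 and 0.03 on its probes, and F3, the tissue factor of coagulation, by 0.07 and 0.06 on 2 probes that share 20 bases.

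**Figure D1:**
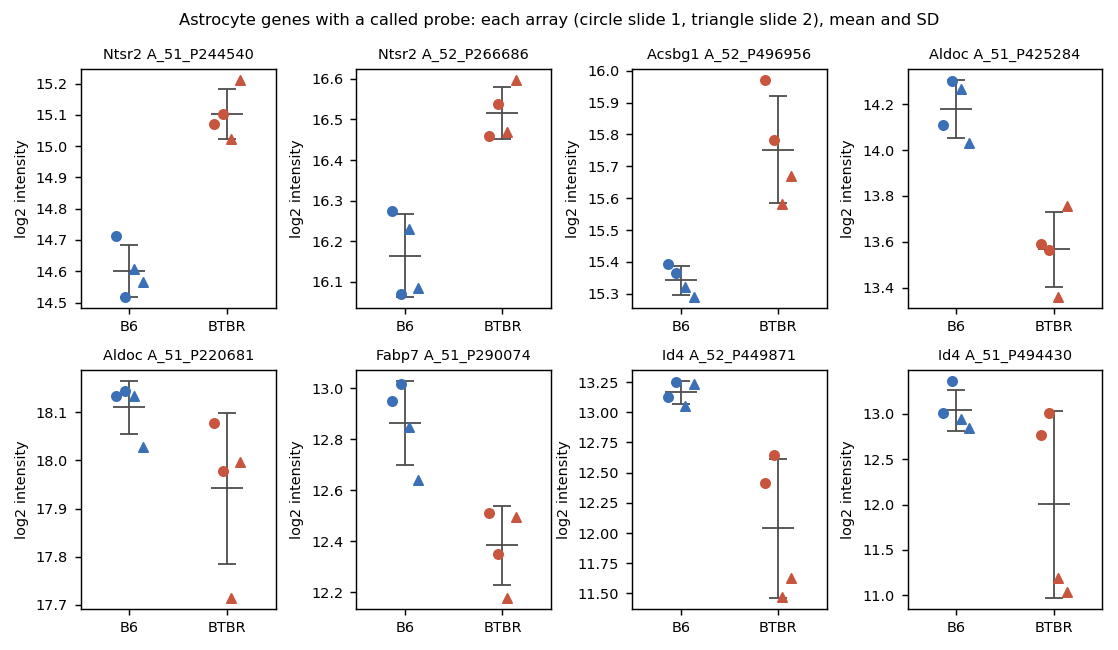
Normalized log2 intensity (vertical axis, 1 scale per panel, not starting at 0) of the 8 probes of Ntsr2, Acsbg1, Aldoc, Fabp7 and Id4 on each array of B6 (blue) and BTBR (red), with circles for slide 1, triangles for slide 2, and the mean and SD of 4 arrays. Arrays of the strains do not overlap in the panels of both Ntsr2 probes, Acsbg1, Aldoc A_51_P425284, Fabp7 and Id4 A_52_P449871, and BTBR 3 and 4 lie apart from the other arrays in both Id4 panels.

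Lipid genes had 1 probe called higher and 1 called lower of 9 tested, beside 3.31% and 4.30% of all probes. Acsbg1 encodes an acyl-CoA synthetase that activates very long chain fatty acids. Its only probe (NM_053178) read 15.39, 15.37, 15.32 and 15.29 in B6 and 15.97, 15.78, 15.58 and 15.67 in BTBR. Every BTBR array was above every B6 array, and BTBR 1 was the highest. The difference was 0.41 (standard error 0.09, 95% interval from 0.21 to 0.61, limma adjusted p = 0.0217), a 1.33-fold rise. Without BTBR 1 and 2 it was 0.28 (limma adjusted p = 0.0771), and limma called it in 4 of the 8 fits that left out 1 array. Fabp7, the brain fatty acid-binding protein of radial glia and astrocytes, read 12.95, 13.02, 12.85 and 12.64 in B6 and 12.51, 12.35, 12.18 and 12.49 in BTBR on its only probe (NM_021272). Every BTBR array was below every B6 array. The difference was -0.48 (standard error 0.11, 95% interval from -0.72 to -0.24, limma adjusted p = 0.0254), with a pfp of 0.153. It was called in 4 of the 8 fits with 1 array left out and was -0.53 (limma adjusted p = 0.0759) without BTBR 1 and 2.

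No other lipid gene had a called probe. Apoe, the main apolipoprotein of the brain, was spotted 10 times per array, and its medians over the spots lay between 18.35 and 18.37 in B6 and between 18.32 and 18.37 in BTBR. The difference was -0.01 (95% interval from -0.13 to 0.10). Quantile normalization sets such bright probes by their rank, and Apoe ranked between 7 and 9 of the 27982 tested probes on every array, so the spread between mice (SD 0.008 in B6 and 0.021 in BTBR) is compressed. With median centring the SDs were 0.053 and 0.064, beside a median SD of 0.061 between spots of 1 array, and the difference was -0.05 (standard error 0.07, limma adjusted p = 0.790). Clu, another apolipoprotein, differed by 0.05, and Acsl3, a long chain acyl-CoA synthetase, by 0.06. Acsl6, a synthetase of the same family, was measured by 4 probes with differences from -0.03 to 0.11 and limma adjusted p-values from 0.522 to 0.995.

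In sugar and folate metabolism the probes of 1 gene disagreed in size. Aldoc encodes aldolase C, the brain form of a glycolytic enzyme. Probe A_51_P425284 (ENSMUST00000017534) read 14.11, 14.30, 14.27 and 14.03 in B6 and 13.59, 13.56, 13.36 and 13.76 in BTBR, with every BTBR array below every B6 array. The difference was -0.61 (standard error 0.10, 95% interval from -0.84 to -0.39, limma adjusted p = 0.00506, pfp = 0.0586), a 1.53-fold fall. It was -0.63 within slide 1 and -0.59 within slide 2, where limma did not call it (adjusted p = 0.109), and -0.62 (limma adjusted p = 0.0404) without BTBR 1 and 2. Probe A_51_P220681 (NM_009657) read 18.13, 18.14, 18.13 and 18.03 in B6 and 18.08, 17.98, 17.71 and 17.997 in BTBR. Its difference was -0.17 (standard error 0.09, 95% interval from -0.36 to 0.02, limma adjusted p = 0.346). This probe ranked between 14 and 39 of the tested probes, where quantile normalization sets values by rank, and the scaling decided which BTBR array lay within the B6 range, BTBR 1 here and BTBR 4 with median centring (difference -0.16, limma adjusted p = 0.279). The difference between the probes was not tested. Aldh1l1, a folate enzyme used as a marker of all astrocytes, read from 13.34 to 13.85 in B6 and from 13.51 to 13.98 in BTBR, a difference of 0.19 (95% interval from -0.12 to 0.50, limma adjusted p = 0.542), and of 0.013 (limma adjusted p = 0.980) without BTBR 1 and 2.

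Of 7 tested probes of the transcription factor genes 1 was called by limma, lower in BTBR, beside 4.30% of all probes called lower. Id4 differed most, and its arrays fell into separate levels within BTBR. Id4 encodes an inhibitor of DNA binding, which pairs with basic helix-loop-helix factors and is found in astrocytes and neural stem cells. Probe A_52_P449871 (NM_031166) read 13.13, 13.25, 13.05 and 13.23 in B6 and 12.42, 12.64, 11.47 and 11.63 in BTBR. All BTBR arrays were below all B6 arrays, and BTBR 3 and 4 were lower than BTBR 1 and 2. The difference was -1.13 (standard error 0.25, 95% interval from -1.68 to -0.57, limma adjusted p = 0.0242, pfp = 0.0032). Probe A_51_P494430 read 13.01, 13.36, 12.94 and 12.85 in B6 and 12.77, 13.01, 11.19 and 11.04 in BTBR. Here BTBR 2 lay within the B6 range, and BTBR 3 and 4 lay far below it. The difference was -1.04 (standard error 0.44, limma adjusted p = 0.246), which the rank product called (pfp = 0.0182) and limma did not.

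The strain difference of Id4 was taken within each slide. On A_52_P449871 it was -0.66 (limma adjusted p = 0.020) within slide 1 and -1.59 (limma adjusted p = 5.4e-04) within slide 2. On A_51_P494430 it was -0.30 within slide 1, where the arrays overlapped and limma did not call it (adjusted p = 0.253), and -1.78 (limma adjusted p = 7.3e-04) within slide 2. Tested for a slide by strain interaction in limma over all probes, the 2 probes had adjusted p-values of 0.401 and 0.330. Without BTBR 1 and 2 the differences were -1.62 and -1.93, and limma called both probes. These were the BTBR arrays nearest to B6 on both probes, so a larger difference without them follows from the choice and is no further support. With 1 array left out in turn, A_52_P449871 was called in 3 of 8 fits and A_51_P494430 in none.

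The other transcription genes showed no called probe. Sox9, a factor that drives the astrocyte fate, had 3 probes with differences of -0.06, -0.10 and -0.11, and on its probe with 10 spots per array the B6 arrays lay between 10.52 and 10.76 and the BTBR arrays between 10.48 and 10.62. Id3, a relative of Id4, read from 13.39 to 13.54 in B6 and from 13.51 to 13.82 in BTBR, a difference of 0.15 (limma adjusted p = 0.389). Gli3, a factor of hedgehog signaling, differed by 0.17 on A_51_P171288, and its second probe, A_51_P410070, stayed near background on all arrays and was not tested. Id4 was thus the only one of these 4 genes with a called probe.

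**Figure D2:**
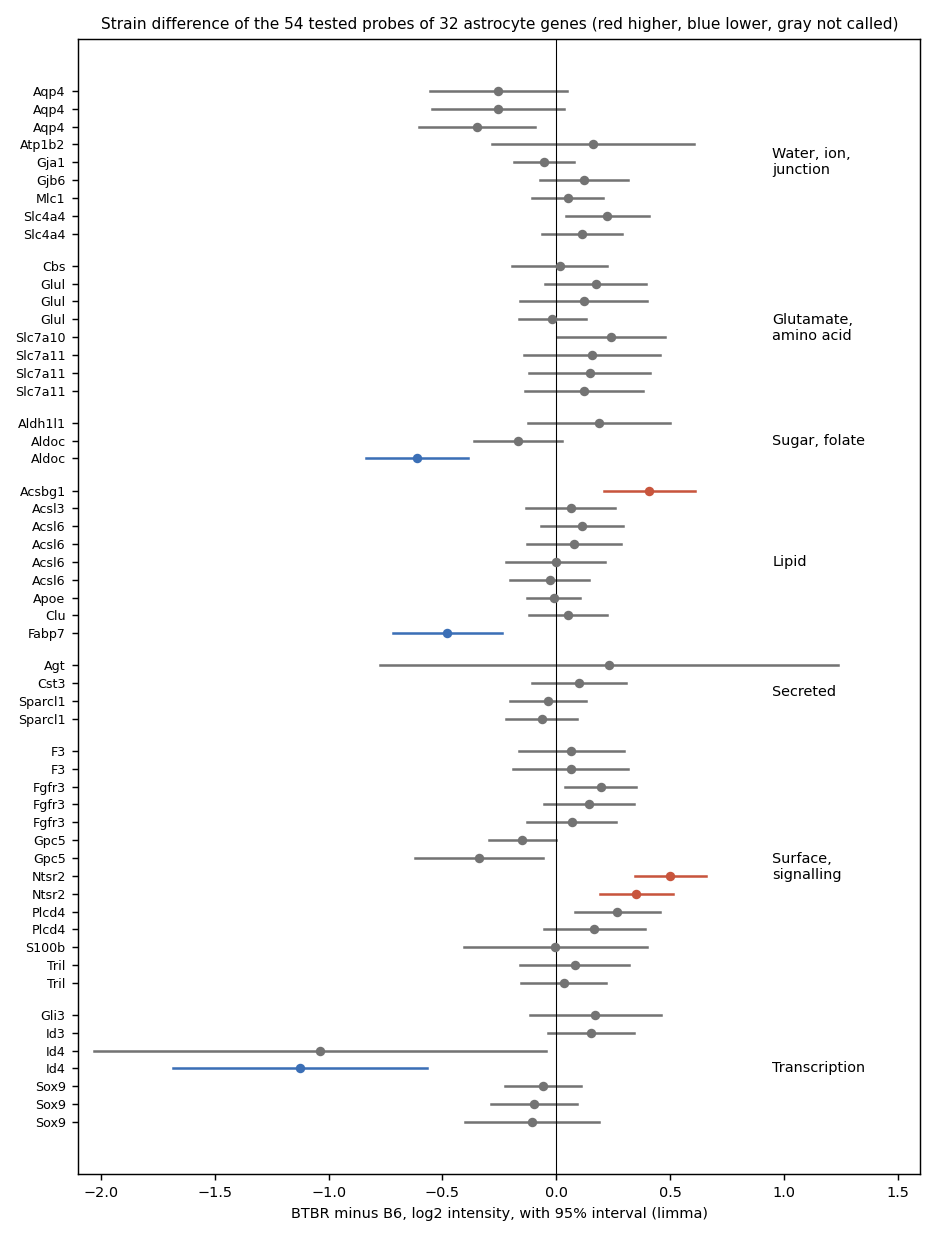
Difference of BTBR minus B6 on the log2 scale (horizontal axis) with its 95% limma interval for each of the 54 tested probes of the 32 astrocyte genes (vertical axis), grouped by role, with called probes in red (higher) and blue (lower). Differences run from -1.13 (Id4) to 0.50 (Ntsr2), and the intervals of Agt and of both Id4 probes are wide.

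The genes of water, ion and gap junction transport had 0 called probes of 9 tested, beside 7.61% of all probes. An unadjusted limma p under 0.05 was found for 2, beside 18.5%, and the rank product called none, beside 3.95%. Aqp4, the water channel of the endfeet, was lower on all 3 probes, by 0.35, 0.26 and 0.25 (limma adjusted p = 0.119, 0.335 and 0.360). On A_52_P625527 the B6 arrays read 11.17, 11.10, 11.30 and 11.30 and the BTBR arrays 11.16, 10.74, 10.65 and 10.91, so that BTBR 1 alone lay within the B6 range. Without BTBR 1 limma called this probe, with a difference of -0.45 (adjusted p = 0.0252). Slc4a4, a sodium bicarbonate cotransporter, was higher by 0.22 and 0.11 on its tested probes (limma adjusted p = 0.161 and 0.507), and its probe A_52_P457567 stayed near background on all arrays and was not tested. Gja1, which encodes connexin 43, differed by -0.06 on a probe with 10 spots per array, and Gjb6, which encodes connexin 30, by 0.12. The second Gjb6 probe, A_51_P218937, carried an outlier flag on B6 4, where it read 13.40 beside 12.26 to 12.68 on the other arrays, and was left out. Mlc1, a membrane protein of the endfeet, differed by 0.05 (95% interval from -0.11 to 0.21). Atp1b2, a subunit of the sodium pump, read from 14.46 to 14.68 in B6 and 15.38, 14.75, 14.36 and 14.54 in BTBR, a difference of 0.16 with BTBR 1 the highest array, and of -0.15 (limma adjusted p = 0.501) without BTBR 1 and 2.

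Glutamate and amino acid genes had 0 called probes of 8 tested, beside 7.61% of all probes. An unadjusted limma p under 0.05 was found for 1, beside 18.5%, and the rank product called none, beside 3.95%. Glul, glutamine synthetase, differed by 0.12, 0.17 and -0.02 on 3 probes, and the last, A_52_P101279, read from 16.68 to 16.88 in B6 and from 16.70 to 16.82 in BTBR (95% interval of the difference from -0.16 to 0.13). Slc7a10, a transporter of small neutral amino acids and D-serine, read 12.58, 12.58, 12.65 and 12.36 in B6 and 12.93, 12.96, 12.63 and 12.62 in BTBR, a difference of 0.24 (limma adjusted p = 0.267). The BTBR arrays above the B6 range were BTBR 1 and 2, and without them the difference was 0.08 (limma adjusted p = 0.760). Slc7a11, the cystine and glutamate exchanger, differed by 0.16, 0.15 and 0.12 on its 3 tested probes, and a further probe, A_52_P298824, stayed near background on all arrays and was not tested. Cbs, which makes cystathionine, differed by 0.02 (limma adjusted p = 0.954).

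Secreted proteins had 0 called probes of 4 tested, beside 7.61% of all probes. An unadjusted limma p under 0.05 was found for 0, beside 18.5%, and the rank product called none, beside 3.95%. Cst3, the protease inhibitor cystatin C, differed by 0.10, and Sparcl1, a matrix protein that promotes synapses, by -0.06 and -0.04 on its probes, or by -0.08 and -0.02 with median centring. Agt, the angiotensin precursor that astrocytes secrete, read 12.168, 12.82, 12.91 and 12.94 in B6 and 13.88, 13.73, 11.98 and 12.164 in BTBR. BTBR 1 and 2 were above all B6 arrays, whereas BTBR 3 and 4 were below every B6 array, BTBR 4 by little. The difference over all arrays was 0.23 (95% interval from -0.77 to 1.24, limma adjusted p = 0.844). Within slide 1 it was 1.32 (limma adjusted p = 0.010) and within slide 2 it was -0.85 (limma adjusted p = 0.0747), and the slide by strain interaction had an adjusted p of 0.330 in limma. Without BTBR 1 and 2 the difference was -0.63 (limma adjusted p = 0.185).

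Marker genes of the thalamus, choroid plexus and oligodendrocytes were higher on BTBR 1 and 2 than on BTBR 3 and 4, and those of ependyma and meninges did not follow that split. Of 15 thalamus genes 14 were on the array and tested, none of them at background, and the log2 of their summed intensity, with the brightest probe per gene, was between 14.999 and 15.08 in B6 and between 14.68 and 17.57 in BTBR. The difference of the thalamus probes was above 0 for 25 of 25, beside 14900 of 27982 over all probes. Limma called 0 of them, beside 7.61% of all probes, and the rank product 7, all higher, beside 1.66% called higher. Of 15 choroid plexus genes 14 were tested, none at background, with a mean log2 intensity of 12.44 and 12.35 on BTBR 1 and 2, 10.75 and 10.64 on BTBR 3 and 4, and 10.89, 11.63, 11.66 and 10.42 on the B6 arrays. Their summed log2 level was between 15.76 and 17.15 in B6 and between 16.003 and 17.89 in BTBR. The 20 oligodendrocyte genes, all tested, had a mean of 13.24 and 13.45 on BTBR 1 and 2, 12.78 and 12.61 on BTBR 3 and 4, and between 12.88 and 13.01 in B6, and a summed level from 18.80 to 18.96 in B6 and from 18.51 to 19.43 in BTBR. On BTBR 1 to 4 the mean of 10 ependyma genes was 11.18, 10.68, 11.04 and 10.35, and that of 15 meninges genes 11.50, 10.87, 11.16 and 11.87. The part of these lists in the values of Agt and Id4 was not tested. The brightest probes of the 32 astrocyte genes averaged 13.81 and 13.76 on BTBR 1 and 2, 13.55 and 13.65 on BTBR 3 and 4, and between 13.65 and 13.69 in B6. Without BTBR 1 and 2 the median difference over the astrocyte probes was 0.012, beside 0.010 over all probes, and limma called 4 probes of 3 genes, which is 7.41% of the astrocyte probes, beside 5.54% of all probes.

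**Figure D3:**
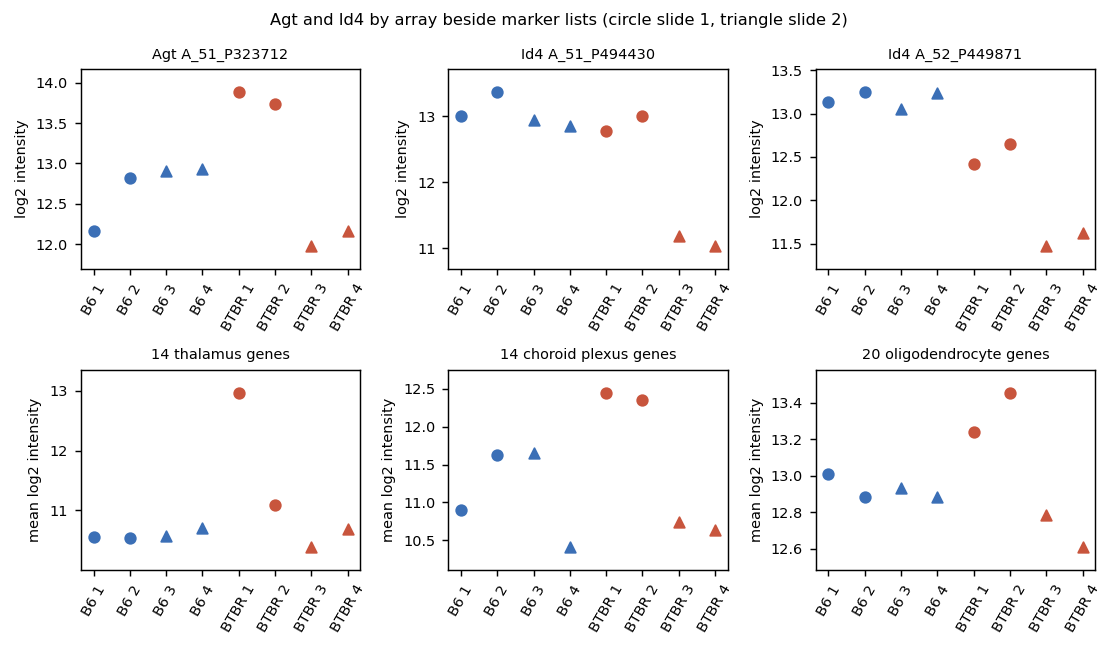
Normalized log2 intensity on each of the 8 arrays (horizontal axis; B6 blue, BTBR red; circles slide 1, triangles slide 2) of the Agt probe and both Id4 probes, above the mean log2 intensity of 14 thalamus, 14 choroid plexus and 20 oligodendrocyte genes. Axes do not start at 0. BTBR 1 and 2 are the highest arrays for Agt, choroid plexus and oligodendrocyte genes, and BTBR 3 and 4 are the lowest for Id4.

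The number of calls depended on single arrays. Limma called 2 astrocyte probes without B6 2 (Ntsr2 A_51_P244540 and Aldoc A_51_P425284) and 3 without B6 3 or without B6 4, against 6 with all arrays. These are 3.70%, 5.56% and 5.56% of the astrocyte probes, beside 5.52%, 5.48% and 5.63% of all probes, so that the share of astrocyte probes called was below or near that of all probes in these 3 fits. Ntsr2 A_51_P244540 and Aldoc A_51_P425284 were called in all 8 fits that left out 1 array, with adjusted p-values up to 0.0098 and 0.0225.

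A further 45 astrocyte genes, taken as a list of the same kind, were set beside the 32. Of their 79 tested probes 7 were called, 1 higher and 6 lower, which is 8.86%, beside 11.1% of the 54 probes above and 7.61% of all probes. The median difference was 0.0033, beside 0.07 for the 54 probes and 0.01 for all probes. Called genes were Aass (0.27), which degrades lysine, and Gfap, the intermediate filament of astrocytes (-1.30 on its brightest probe, -0.57 and -0.49 on the others). The metallothionein genes Mt1 (-0.28 on 1 of 2 probes), Mt2 (-0.55) and Mt3 (-1.38) were called too. In both lists most probes were not called, 48 of the 54 and 72 of the 79.

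**Figure D4:**
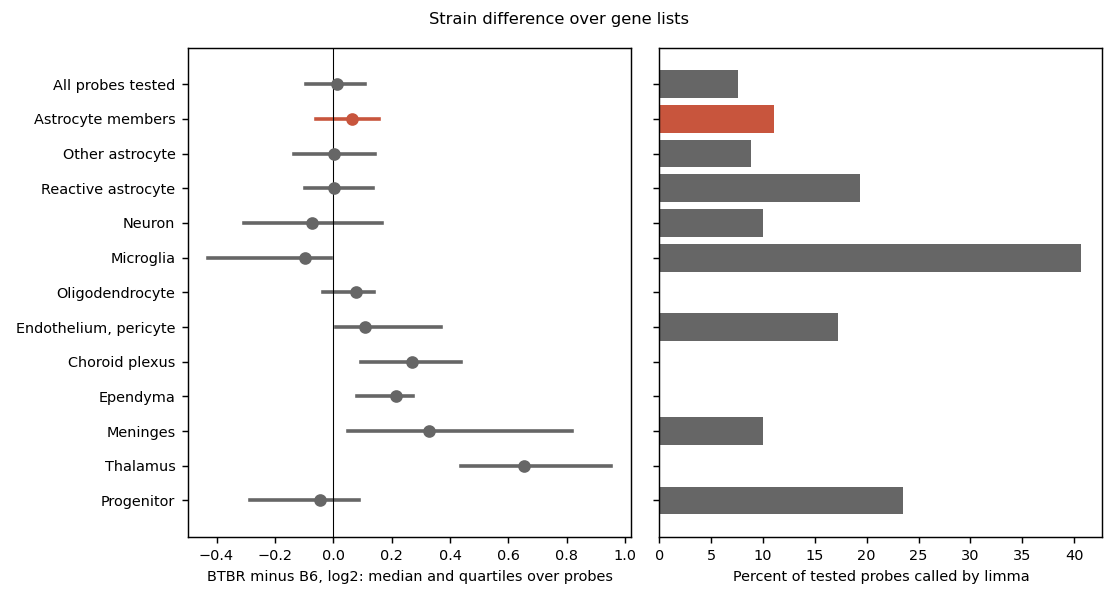
Left, median (point) and quartiles (line) of the difference BTBR minus B6 on the log2 scale over the tested probes of all genes, the 32 astrocyte genes (red) and 11 other lists. Right, percent of tested probes called by limma in each, 11.1% for the 32 astrocyte genes and 7.61% for all probes.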

How the data were processed

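Each of the 8 arrays held RNA of 1 mouse, 4 per strain, grouped by title, source and genotype. The labels also give C57BL/6J as the strain background of the BTBR samples. The intensity values were deposited by the authors as read by Agilent Feature Extraction, which is release 10.7.3.1 in the file headers and 9.1 in the submitters' processing notes. The log2 matrix was deposited by the authors after Agi4x44PreProcess and quantile normalization, with replicate spots as their median. It was used as an alternative, and its offset is not given in the sources used here. Its values rank as the scanner values do on each array.

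In R 4.3.3 (limma 3.58.1) each spot had its median local background removed from its mean intensity, with a floor of 0.5 and an offset of 50, before log2 and quantile normalization. Another 154 probes, flagged as outliers on 50% or more of their spots on any array, were dropped together with the controls. Probes well above background on at least 75% of the arrays of a strain were kept (27982 probes, 18399 gene names). Limma fitted strain alone, with Benjamini-Hochberg adjustment over all probes kept. The rank product used 16 pairs of arrays and 100 permutations. Within-slide values pooled the spread of both slides. The scripts were tested on simulated data. The 4 arrays per strain limit the precision.

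All 32 genes are named, and called ones are given by array. From other lists at most 3 called genes with the smallest p are named, with Aass and Mt1 of the further astrocyte list added after their values were seen. The other lists hold further astrocyte, reactive astrocyte, neuron, microglia, oligodendrocyte, endothelium and pericyte, choroid plexus, ependyma, meninges, thalamus and progenitor genes. Members and lists were chosen with earlier results of these data known. Alternatives were other signals, background corrections, scaling, filters, thresholds and limma options, blocks for slide and replicate number, and arrays left out. The qRT-PCR measurements and En2 mice of the study were not analysed here.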

Additional observations from a re-analysis of the deposited data

Results flagged for a closer look

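Of 108 groups of 4 arrays, 1 for each tested astrocyte probe and strain, 5 held an array whose gap to its neighbor passed Dixon's 95% criterion, and chance gives about 1 in 20 groups. B6 1 was low for Agt, at 12.17 with the next array at 12.82. B6 4 was low for Aldoc A_51_P220681, at 18.03 with the next at 18.13. B6 2 was high for Gli3 A_51_P171288, at 10.88 with the next at 10.697. B6 3 was high for Glul A_52_P143866, at 12.82 with the next at 12.48. BTBR 1 was high for Id3, at 13.82 with the next at 13.54. The 5 arrays are of different mice, and no array was far from its group for more than 1 of these probes.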

How the results depend on the processing

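Against 6 called astrocyte probes, limma called 3 within slide 2, 2 at an adjusted p under 0.01 and 2 to 7 with 1 array left out in turn (2 without B6 2, 3 without B6 3 or B6 4, 7 without BTBR 1). The share of all probes called was 3.70% within slide 2, beside 5.56% of the astrocyte probes, and 4.27% beside 3.70% at an adjusted p under 0.01. It was 6.26% beside 13% without BTBR 1, and with 1 array left out it was from 5.48% to 7.80%. Against 5 called genes it called 3 without BTBR 1 and 2, 2 within slide 2, 2 at an adjusted p under 0.01 and 2 to 6 with 1 array left out (2 without B6 2 or B6 3, 3 without B6 1, B6 4 or BTBR 2). The share of all gene names called was not counted under these alternatives, so a fall particular to the astrocyte genes cannot be read from these counts. The rank product called 1 probe rather than 2 on the processed signal minus the 75th percentile and at a pfp of 0.01 or less, 1 to 2 with 1 array left out (1 without B6 1, 2 or 3, or BTBR 3 or 4), and 3 with normexp, median centring, the deposited matrix or no dim filter. The median difference of 0.07 was 0.012 with median centring, 0.012 without BTBR 1 and 2, 0.0036 within slide 2, and 0.04 to 0.08 with 1 array left out, against an SD between mice of 0.049. Taking 1 median per gene gives no count of probes and no rank product. The called probes of Ntsr2, Aldoc and Id4 were fitted under 21 alternatives and those of Acsbg1 and Fabp7, with 1 probe per gene, under 22. None of their differences changed sign, and Ntsr2 A_51_P244540 was called in all 21. Ntsr2 A_52_P266686 lost its call in 8, Fabp7 in 7, Acsbg1 in 6, Id4 A_52_P449871 in 5 and Aldoc A_51_P425284 in 1. As medians over their probes, Ntsr2 (0.43, adjusted p = 0.0047) and Aldoc (-0.39, adjusted p = 0.0272) were called by limma and Id4 (-1.08, adjusted p = 0.110) was not. Without the dim filter, and with outlier flags kept, limma again called 6 probes. Replicate numbers are shared between strains, and the labels do not pair the mice. Deviations of same-numbered arrays correlated at -0.14, 0.51, -0.10 and 0.39, and 2 of 4 numbers had their own number as best match. With the replicate block limma called 4 probes of 4 genes (7.41%, beside 5.90% of all probes), and Fabp7 (adjusted p = 0.0640) and Ntsr2 A_52_P266686 (adjusted p = 0.0754) lost their calls. The causes of these changes were not tested. Signal over background limits the 3 probes not well above it on any array.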

Other observations

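Other gene lists of the hippocampus are given by their genes with at least 1 probe called by limma, beside 10% of all gene names tested. Reactive astrocyte genes had 2 called higher and 2 lower of 23 tested. The protease inhibitor gene Serpina3n rose by 2.24 on the log2 scale (limma adjusted p = 2.2e-04). Gfap was lower by 1.30, 0.57 and 0.49 on its probes, and Osmr, an oncostatin M receptor subunit, was lower by 0.52 (limma adjusted p = 0.0135). Of 20 microglia genes 8 had a probe called lower and 2 a probe called higher, with 1 gene in both counts. The complement gene C1qb was lower by 1.01. Fcrls, the gene in both counts, was lower by 1.16 on A_52_P231075 and higher by 1.09 on A_51_P172168 (limma adjusted p = 2.4e-05 and 1.4e-04). Cx3cr1, the fractalkine receptor, was higher by 1.41 on A_52_P99810, and the difference of its other probe was -0.10 (limma adjusted p = 0.669). Of 20 endothelium and pericyte genes 3 were called higher, Abcc9 (0.63), Vwf (0.88) and Rgs5 (0.65), and none lower. The called Abcc9 probes were dim, with B6 means of 7.94 and 8.06, and its brightest probe differed by 0.37 (limma adjusted p = 0.121). Of 20 neuron genes 3 were called lower, Nefl (-1.93), Syt1 (-0.71) and Map2 (-0.34), and none higher.

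Of 15 meninges genes 2 were called higher, Slpi (2.03) and Igf2 (1.24). Of 12 tested progenitor genes 1 had a probe called higher and 2 a probe called lower, namely Pcna (-0.28) and Sox11, which is in both counts with 0.53 on A_51_P283516 and -0.50 on A_51_P297434. Limma called 0 of 20 oligodendrocyte, 14 choroid plexus, 10 ependyma and 14 thalamus genes, with 2, 2, 0 and 0 probes at an unadjusted p under 0.05, and the rank product called 1, 2, 0 and 7 probes, all higher in BTBR. The median difference was 0.08 over oligodendrocyte, 0.27 over choroid plexus, 0.21 over ependyma and 0.65 over thalamus probes, beside 0.01 over all probes. These lists were written from general knowledge, overlap in part (Gfap is in the reactive and the further astrocyte list), and were not tested against each other.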
